A study of Mus musculus with 31 samples.

Results

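The genes described here are 50 genes of the cell cycle and of DNA replication, 26 that act in late G1 and S phase (G1/S) and 24 that act in G2 and mitosis (G2/M), measured in eyes of mouse embryos with and without the X-linked long non-coding RNA Ftx. They were taken by name, and a probe of the array was used when the array's own gene name matched one of them and its mean signal over the WT eyes was above 500 intensity units. Of 70 such probes, 58 were above this minimum, 28 for 23 G1/S genes and 30 for 22 G2/M genes, among 14062 of 55681 different probes that were above it on the whole array. Tyms, Cdc45, Ccne2, Aurkb and Cenpf had no probe above it. The array names 34832 genes, 11435 of them with a probe above the minimum. Among the 45 measured cell cycle genes, 36 had a single probe above the minimum, 9 had several, and only Pola1 is X-linked.

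RNA came from single whole eyes of E13.5 embryos of a C57BL/6N background, of normal appearance and freed of the pigmented epithelial layer by surgery. WT females (n = 3, numbered 1, 2 and 4), WT males (n = 3) and hemizygous mutant males (Ftx-/Y, n = 3) had 1 array per eye, and homozygous mutant females (Ftx-/-, n = 11) had 2 arrays per eye. The targeted allele lacks Ftx in all cells of the embryo, with the microRNAs that lie in one of its introns, and the WT eyes carry no targeted allele. The labels number the eyes and do not say which came from one embryo, so the p-values measure the spread between eyes.

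Cells enter S phase when D-type and E-type cyclins and their kinases free the E2F factors from the retinoblastoma protein, and E2F then raises the genes that load the MCM helicase on origins, copy DNA and supply nucleotides. Later in the cycle the B-Myb and FoxM1 complexes raise the mitotic genes through the cell cycle homology region (CHR) of their promoters, often with NF-Y at a CCAAT box, and cyclin B with Cdk1 then drives the cell into mitosis. In the eye at this stage, retinal progenitors and the lens epithelium divide, while the first retinal neurons and the lens fibre cells have left the cycle. In RNA of a whole eye, fewer cells of a type and less RNA per cell cannot be told apart.

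The promoters below are shown as examples of the E2F element among the G1/S genes and of the CHR letters among the G2/M genes. RefSeq promoters (GRCm38.p6, 250 bases before to 50 bases after the start site) were found for 39 of the 50 genes, 41 promoters in all, and the 160 bases before the start site are printed 5′ to 3′ on the strand of the gene. Capitals mark matches of the E2F element TTTNNCGC on either strand in the first 3 and of the CHR letters TTTGAA on either strand in the last 3. The Cdk1 promoter also holds E2F matches, at -131 and -29 from the start site, which are left in lower case. Mcm5 (chr8:75109349-75109508, plus strand), Mcm6 (chr1:128359706-128359865, minus strand) and Pola1 (chrX:93632156-93632315, minus strand) are G1/S genes. Cdk1 (chr10:69352913-69353072, minus strand), Top2a (chr11:99024190-99024349, minus strand) and Ube2c (chr2:164769769-164769928, plus strand) are G2/M genes. Where matches on both strands overlap, the capitals run on as 1 stretch, as in Mcm5 and Mcm6.
Mcm5: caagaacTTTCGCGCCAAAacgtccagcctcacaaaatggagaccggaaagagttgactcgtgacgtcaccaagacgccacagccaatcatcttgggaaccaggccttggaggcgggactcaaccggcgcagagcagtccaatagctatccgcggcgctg
Mcm6: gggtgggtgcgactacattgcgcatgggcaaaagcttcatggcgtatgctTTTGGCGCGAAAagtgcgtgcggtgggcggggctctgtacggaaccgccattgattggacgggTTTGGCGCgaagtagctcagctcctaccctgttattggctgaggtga
Pola1: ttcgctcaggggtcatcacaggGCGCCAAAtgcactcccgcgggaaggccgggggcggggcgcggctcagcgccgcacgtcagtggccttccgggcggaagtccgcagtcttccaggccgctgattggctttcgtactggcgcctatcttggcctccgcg
Cdk1: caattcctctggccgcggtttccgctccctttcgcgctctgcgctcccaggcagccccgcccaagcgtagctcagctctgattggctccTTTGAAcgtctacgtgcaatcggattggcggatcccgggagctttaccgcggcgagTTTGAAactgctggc
Top2a: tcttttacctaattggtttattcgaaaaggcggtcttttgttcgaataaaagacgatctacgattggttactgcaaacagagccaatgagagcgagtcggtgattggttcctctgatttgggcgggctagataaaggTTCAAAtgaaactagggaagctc
Ube2c: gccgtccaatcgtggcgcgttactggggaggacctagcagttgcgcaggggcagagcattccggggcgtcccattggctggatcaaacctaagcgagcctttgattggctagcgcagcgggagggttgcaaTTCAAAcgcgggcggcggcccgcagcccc

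Over the whole 300 bases, the E2F letters were present in 10 of 21 G1/S promoters (47.6%), 1 of 20 G2/M promoters (5%) and 1698 of 32851 promoters in the reference table (5.17%). The CHR letters were present in 3 of 21 G1/S promoters (14.3%), 13 of 20 G2/M promoters (65%) and 5878 promoters of the table (17.9%). CCAAT was more widespread, in 14 of 21 G1/S promoters (66.7%), 17 of 20 G2/M promoters (85%) and 37.4% of all. The pair of CHR and CCAAT was held by 13 of 20 G2/M promoters against 6.95% of all promoters. The single G2/M promoter with E2F letters was that of Cdk1, which holds both elements. A match says only that these letters stand in the window.

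**Figure D1:**
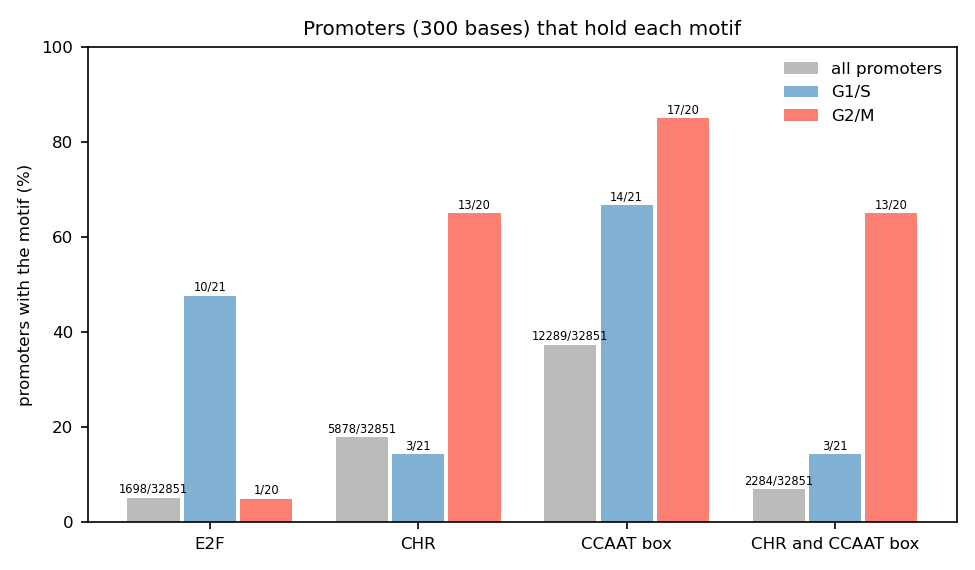
Share of promoters (percent, y axis from 0) that hold the E2F, CHR or CCAAT letters, or CHR and CCAAT together, among all RefSeq promoters, G1/S promoters and G2/M promoters, with the number of promoters on each bar. E2F letters stood in 47.6% of G1/S and 5% of G2/M promoters, and CHR letters in 14.3% and 65%.

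The arrays lay on 4 slides, each scanned on its own. Slide 1 held the WT eyes of both sexes with 1 Ftx-/Y eye, slide 2 held the other Ftx-/Y eyes and 3 of the Ftx-/- eyes, and slides 3 and 4 held 4 Ftx-/- eyes each, so that in females genotype and slide cannot be told apart except through the males. Of the spots, 48.2% to 70.4% were well above background on an Ftx-/- array and 49.9% to 65.3% on the others. Of the probes of Ftx itself, named B230206F22Rik in the files, A_55_P2175002 was the brighter and lay well above background on 6 of 6 WT arrays, 0 of 3 Ftx-/Y arrays and 9 of 22 Ftx-/- arrays, and its mean signal was 101 ± 44.9 (SD, n = 3) in the WT and 21.8 ± 11 (SD, n = 11) in the mutant females. The dimmer (A_55_P2175007) cleared background in 2 of 3 WT females and on 1 of the 22 female mutant arrays, and in 0 of 3 males of either genotype. All 11 retinal progenitor markers and all 10 lens markers searched for were above the signal minimum. The summed signal of the lens markers was 1107000 to 1181000 in WT females and 860100 to 1105000 in Ftx-/- females, and 11 of their 13 probes were lower in Ftx-/- females (limma adjusted p under 0.05), with a median log2 fold change (log2 FC) of -0.70. In the same groups, the summed signal was 5159 to 7522 and 3311 to 33830 for the pigment epithelium markers, and 3463 to 4826 and 5136 to 36730 for the periocular mesenchyme markers. Only 3 of 7 pigment epithelium genes and 2 of 7 mesenchyme genes had a probe above the minimum. Those 2 mesenchyme probes (Col1a2 and Col3a1) were higher. Surface ectoderm markers summed to 3187 to 3593 and 2662 to 13120 (2 of 6 genes above the minimum), and muscle markers to 92.14 to 208.1 and 58.01 to 1913 (0 of 5). Of the erythroid markers 3 of 6 probes were higher in Ftx-/- females, and their summed signal was 200200 to 256000 in WT males and 297300 to 609200 in Ftx-/Y males. Of the 12 probes of retinal neuron markers, 2 were higher and 5 lower in Ftx-/- females. Beside these marker calls, 35.1% of all 14062 probes were called in the same female comparison (2434 higher and 2496 lower). The part of these tissue differences in the results below was not tested.

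Does loss of Ftx move the cell cycle genes of the female eye? Between Ftx-/- and WT females, 21 of the 58 cell cycle probes passed the test (36.2%), 16 of them higher and 5 lower, beside 35.1% of all 14062 probes (2434 higher and 2496 lower), so that the share of cell cycle probes called was near that of the whole array. Higher probes belonged to Mcm3, Mcm4, Pcna, Cdt1 and Ccne1 among the G1/S genes and to Cdk1, Cenpa, Bub1, Bub1b, Mad2l1, Aurka, Birc5, Kif23 and Nusap1 among the G2/M genes. Lower probes belonged to E2f1, E2f2 and Cdk4 and to Tpx2 and Ube2c. Of the G1/S probes, 6 were higher and 3 lower among 28 (32.1%), with a median log2 FC of 0.04. Of the G2/M probes, 10 were higher and 2 lower among 30 (40%), with a median of 0.17, beside -0.01 over all probes, and 23 of 30 lay above 0 against 48.4% of all probes. Most changes were small, and the median size of a log2 fold change over the cell cycle probes was 0.18, beside 0.19 over all probes. The test is limma on log2 intensities over all 20 eyes, with Benjamini-Hochberg adjustment over all 14062 probes.

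These calls depended on how slide and probe composition were handled. With the slide as a fixed block, which compares females with WT only through the males, none of the 21 calls was kept, while 20 of the 21 kept their direction (Cdt1 did not) with log2 values of -0.57 for Tpx2, -0.51 for E2f2, 0.78 for Cdk1, 0.28 for Mcm3 (A_51_P324934) and 0.28 for Pcna (limma adjusted p = 0.158, 0.129, 0.134, 0.323 and 0.256). With the slide as a random block 10 calls were kept. With the trend of the values with the GC content of the probes taken out 8 were kept, those of Tpx2, E2f2, Cdk4, Mcm4, Cdk1, Cenpa, Bub1b and 1 of the Mad2l1 probes. Leaving out 1 WT female eye kept 15, 12 or 16 of the 21. Mutant and WT eyes did not overlap at 9 higher and 5 lower probes of the 58 in females (24.1%, beside 21.6% of all probes) and at 8 higher and 4 lower in males (20.7%, beside 20.7% of all probes), so that a lack of overlap was about as common over the whole array.

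**Figure D2:**
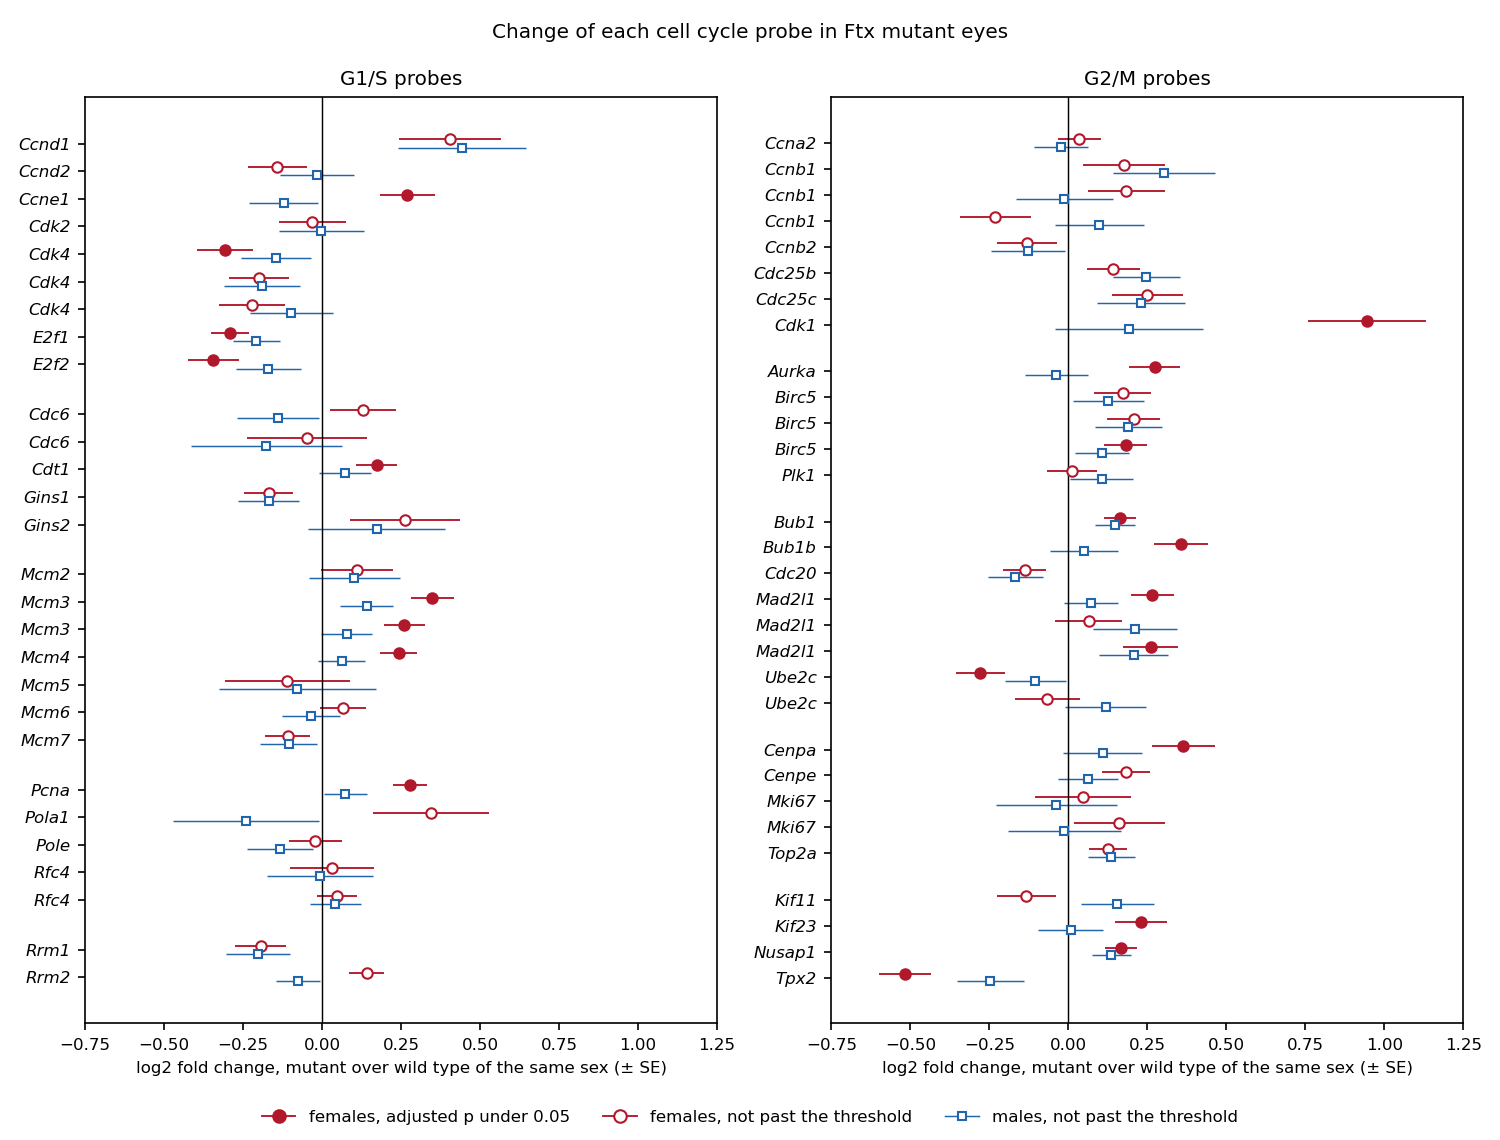
Log2 fold change (x axis) of each of the 58 probes, with bars of ± 1 SE, in females (Ftx-/- over WT, circles, filled where the limma adjusted p is under 0.05) and males (Ftx-/Y over WT, squares), with G1/S genes in one panel and G2/M genes in the other, ordered by role. In females 16 probes were called higher and 5 lower, with Cdk1 at 0.94 and Tpx2 at -0.52 as the extremes, and in males none was called.

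Among the genes that open S phase, E2f1, E2f2 and a probe of Cdk4 were lower in the mutant females. E2f1, an activator of the S-phase genes, had signals of 4549, 5123 and 4837 in the WT females, of 4341, 4789 and 4352 in the WT males, of 4045, 3701 and 3923 in the Ftx-/Y males and of 3637 to 4349 (median 3964) in the Ftx-/- females. The mutant eyes lay below the WT eyes of their own sex without overlap in both sexes. The log2 fold change was -0.29 ± 0.06 (SE) in females (limma adjusted p = 0.00137) and -0.21 ± 0.08 in males (limma adjusted p = 0.318), and with the GC trend taken out the female value was -0.04 (limma adjusted p = 0.733).

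E2f2, a second activating E2F, was measured at 5402, 5573 and 5246 in the WT females, 5503, 5214 and 5420 in the WT males, 4656, 4920 and 4773 in the Ftx-/Y males and 3693 to 5047 (median 4285) in the Ftx-/- females. Again no mutant eye reached a WT eye of its sex. It was lower by a log2 FC of -0.34 ± 0.08 in females (limma adjusted p = 0.00325), and the male value was -0.17 (limma adjusted p = 0.53). E2f3, an activating E2F outside the 50 genes that was chosen after its values were seen, was higher at one probe (A_52_P583458), with 2725 ± 250.3 (SD, n = 3) in WT females against 3629 ± 240.3 (SD, n = 11) in mutant females and a female log2 FC of 0.41 ± 0.06 (limma adjusted p = 0.000172), and gave -0.23 at its other probe (limma adjusted p = 0.325).

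Cdk4, the kinase partner of the D cyclins, has 3 probes, and for the called one (A_55_P1998188) the WT females gave 34170, 37240 and 32480 and the Ftx-/- females 24990 to 31370 (median 27440). All 11 mutant eyes were below the 3 WT eyes at this probe, with a log2 FC of -0.31 ± 0.09 (limma adjusted p = 0.0112). The other Cdk4 probes gave -0.20 and -0.22 (limma adjusted p = 0.111 and 0.106), lower than the WT mean in all 11 eyes at each probe. With the GC trend taken out the first of these was -0.32 and the second turned to 0.10 (limma adjusted p = 0.0178 and 0.42).

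Ccnd1, the main D cyclin of retinal progenitors, had a signal of 65070, 78080 and 72590 in WT females, 95810, 85570 and 112200 in WT males, 111200, 141800 and 146800 in Ftx-/Y males and 74720 to 140700 (median 90740) in Ftx-/- females. Each mutant eye was above the mean of the WT eyes of its sex, but the ranges of mutant and WT eyes overlapped in females and in males. The log2 fold change was 0.41 ± 0.16 in females (limma adjusted p = 0.0581) and 0.44 ± 0.20 in males (limma adjusted p = 0.403), so neither passed. The female value passed in 8 of 32 other settings, namely the 75th percentile, normexp, the series table, the replicate block, the methods' t-test in both its forms, limma with unadjusted p and fold limits, and the Ftx-/- eyes of slide 2 alone. It was 0.21 with the GC trend taken out and 0.35 with the slide as a fixed block, and passed in neither (limma adjusted p = 0.421 and 0.554). Ccnd2, its relative, gave 7300, 6511 and 9679 in WT females and 6132 to 7929 in Ftx-/- females, 6719, 6938 and 6802 in WT males and 7095, 6783 and 6372 in Ftx-/Y males. The Ccnd2 groups overlapped in both sexes, with log2 fold changes of -0.14 and -0.02. Cdk2, the kinase of cyclin E, differed by -0.03 in females.

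Ccne1, the cyclin that starts replication with Cdk2, has 2 probes, with male values of opposite sign. At A_51_P408946 the signal was 4563, 4827 and 5154 in WT females, 4797, 4939 and 5190 in WT males, 4775, 4556 and 4386 in Ftx-/Y males and 4955 to 6761 (median 6000) in Ftx-/- females. All 11 Ftx-/- eyes were above the WT female mean and all 3 Ftx-/Y eyes below the WT male mean. It rose in females by a log2 FC of 0.27 ± 0.09 (limma adjusted p = 0.023), the male value was -0.12 (limma adjusted p = 0.698), and the difference of both changes, 0.39 ± 0.14, had a p of 0.0119 before and 0.242 after adjustment in limma. With the GC trend taken out the female value was 0.15 (limma adjusted p = 0.174). The other probe (A_66_P125327) was under the signal minimum but well above background on all arrays. Its mutant mean was above the WT mean in both sexes, with ranges that overlapped. In a fit without the minimum its log2 values were 0.61 in females and 0.19 in males (limma adjusted p = 0.0241 and 0.787).

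**Figure D3:**
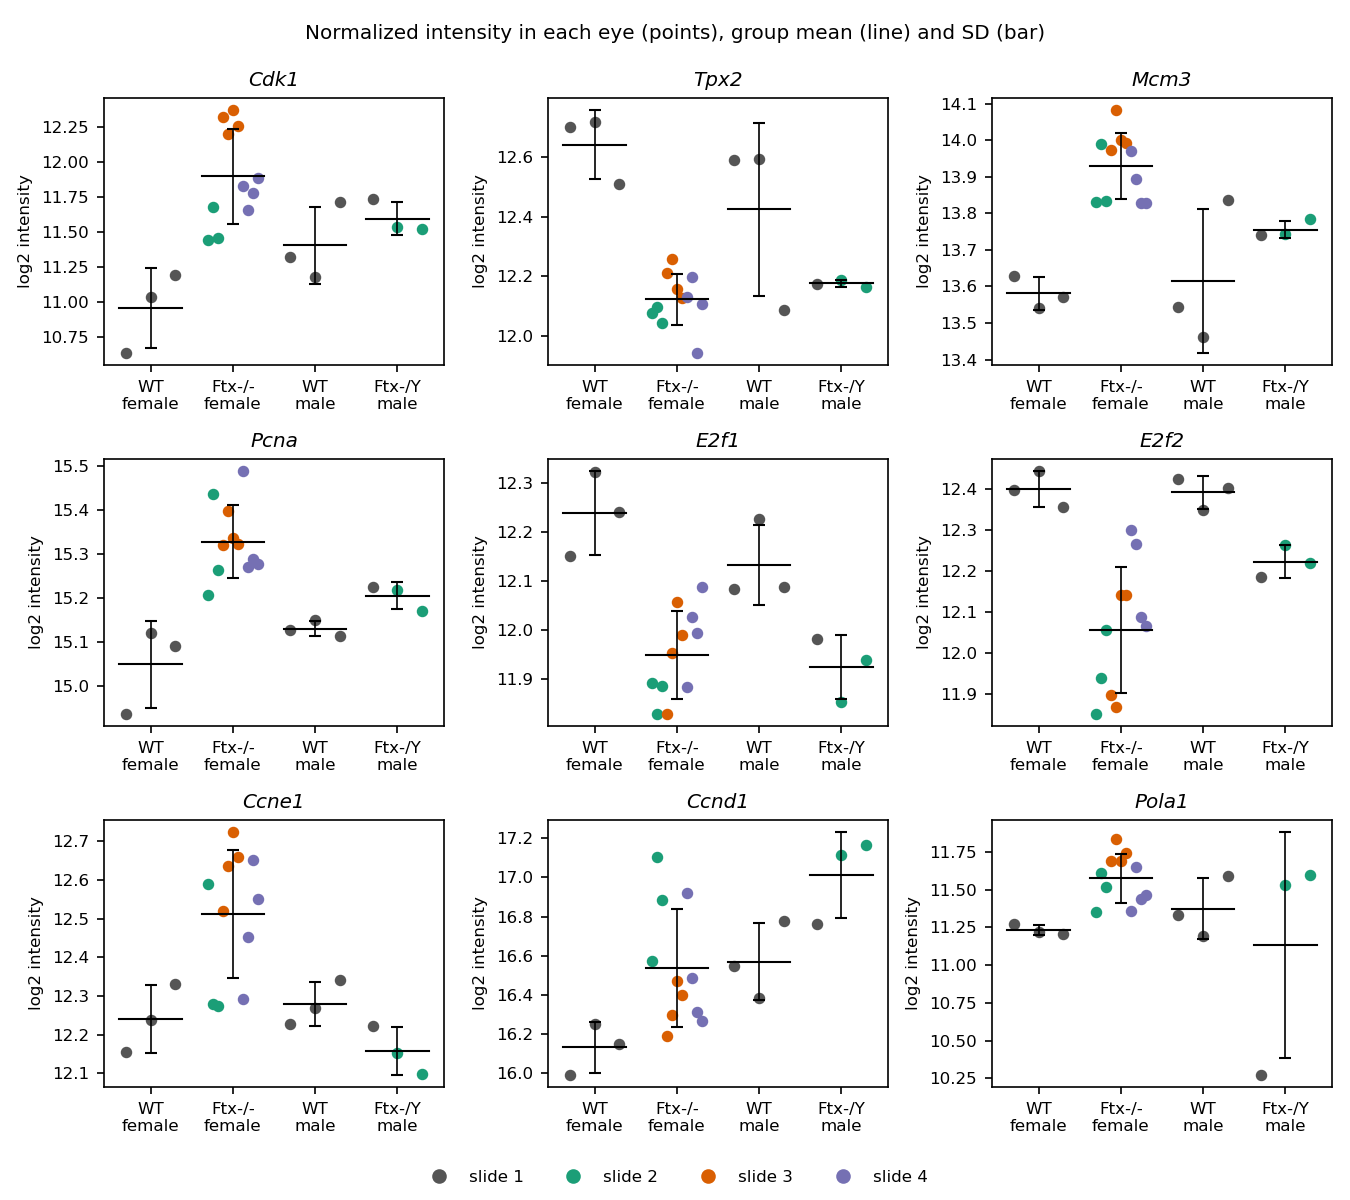
Log2 normalized intensity (y axis) of every eye in the 4 groups for Cdk1, Tpx2, Mcm3, Pcna, E2f1, E2f2, Ccne1, Ccnd1 and Pola1, with points coloured by slide, a line at the group mean and a bar of ± 1 SD. Ftx-/- eyes lay above the WT female eyes without overlap for Cdk1, Mcm3, Pcna and Pola1 and below them for Tpx2, E2f1 and E2f2.

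The replicative helicase, a ring of Mcm2 to Mcm7 that unwinds DNA, was called higher at 3 of 7 probes (42.9%, beside 35.1% of all probes) and lower at none in females. Mcm3 (A_51_P324934) was measured at 12670, 11930 and 12170 in WT females, 11950, 11290 and 14620 in WT males, 13680, 13720 and 14100 in Ftx-/Y males and 14540 to 17340 (median 16040) in Ftx-/- females. Females did not overlap, while the Ftx-/Y eyes lay within the WT male range. Its log2 fold change was 0.35 ± 0.07 in females (limma adjusted p = 0.000894), and its other probe gave 0.26 ± 0.06 (limma adjusted p = 0.00473). Mcm4 rose by 0.24 ± 0.06 on the log2 scale (limma adjusted p = 0.00402), from 18670, 20500 and 21210 in WT to 21530 to 26380 (median 23510). With the GC trend taken out, the Mcm3 values were 0.11 and 0.10 (limma adjusted p = 0.158 and 0.277).

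The other subunits did not pass the test. Mcm2 was at 7638, 6284 and 6401 in WT females, 5941, 5684 and 7006 in WT males, 6932, 6261 and 6749 in Ftx-/Y males and 6057 to 8969 (median 7259) in Ftx-/- females, with overlap in both sexes and a female log2 FC of 0.11 (limma adjusted p = 0.469). Mcm5 was at 11730, 10080 and 10340 in WT females and 4340 to 11850 (median 10450) in Ftx-/- females, with 10440, 10680 and 11280 in WT males and 10040, 10140 and 10500 in Ftx-/Y males. The lowest Mcm5 value belonged to Ftx-/- eye 11, whose 2 arrays differed by 2.83 on the log2 scale at this probe, and the log2 fold change was -0.11 with both arrays and 0.02 without the low one. Mcm6 and Mcm7 differed by 0.07 and -0.11.

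Around the helicase, Cdt1, which loads it on origins, rose by 0.17 ± 0.06 on the log2 scale in females (limma adjusted p = 0.0438), with all 11 Ftx-/- eyes above the WT mean, and gave 0.06 with the GC trend taken out (limma adjusted p = 0.54). Gins1 and Gins2, which help to start the helicase, gave -0.17 and 0.26 and did not pass (limma adjusted p = 0.0912 and 0.251). The probes of Cdc6, a second loading factor, gave 0.13 and -0.05.

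Pcna, the sliding clamp that holds polymerases on DNA, was measured at 31340, 35610 and 34870 in WT females, 35760, 36350 and 35460 in WT males, 38290, 38130 and 36830 in Ftx-/Y males and 37810 to 45960 (median 40900) in Ftx-/- females. The mutant eyes were above the WT eyes without overlap in both sexes. The log2 fold change was 0.28 ± 0.05 in females (limma adjusted p = 0.000898) and 0.07 in males (limma adjusted p = 0.707), and with the GC trend taken out the female value was 0.12 (limma adjusted p = 0.107).

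Pola1, the X-linked catalytic subunit of the priming polymerase, had signals of 2471, 2384 and 2363 in WT females, 2583, 2344 and 3088 in WT males, 1237, 2966 and 3097 in Ftx-/Y males and 2610 to 3657 (median 3122) in Ftx-/- females. The female groups did not overlap, and the lone low value was Ftx-/Y eye 1, the mutant eye on the slide of the WT eyes. The female log2 FC of 0.35 ± 0.18 did not pass (limma adjusted p = 0.153), and with the slide as a fixed block, where that low eye carries the comparison, it was -1.03 (limma adjusted p = 0.0198). Pola1 passed as higher in 5 other settings, namely without Ftx-/Y eye 1, with only the 2 groups compared, in the series table and by the methods' t-test in both its forms. With the GC trend taken out its female value was 0.19 (limma adjusted p = 0.467). Pole, the leading-strand polymerase, differed by -0.02, and the probes of Rfc4, a subunit of the clamp loader, by 0.05 and 0.03. Rrm2, the small subunit of ribonucleotide reductase, was at 26980, 30640 and 29910 in WT females, 34820, 32900 and 32800 in WT males, 29970, 31880 and 33600 in Ftx-/Y males and 28850 to 34170 (median 32620) in Ftx-/- females, overlapping in both sexes, with a female log2 FC of 0.14 (limma adjusted p = 0.0588). Rrm1, the large subunit, gave -0.19 (limma adjusted p = 0.0703).

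Of the G1/S genes under the signal minimum, Tyms, which makes thymidylate, was at 352 ± 14.5 (SD, n = 3) in WT females against 397 ± 30.2 (SD, n = 11) in mutant females, and Cdc45, a part of the active helicase, at 412.5 ± 43.8 and 393 ± 28.7. The Ccne2 probe, with a GC content of 15%, was at 11.9 to 13.5 in the 4 eyes of slide 3 and at 5.41 to 8.06 in all other eyes.

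Among the G2/M genes, Cdk1, the kinase that starts mitosis, had the highest log2 fold change of all 58 probes. Its probe A_55_P2048588 was measured at 1588, 2101 and 2344 in WT females, 2560, 2315 and 3359 in WT males, 3407, 2967 and 2936 in Ftx-/Y males and 2782 to 5309 (median 3643) in Ftx-/- females. No Ftx-/- eye overlapped the WT females, while the males overlapped. The mean signal was 3920 ± 931 (SD, n = 11) against 2011 ± 386 (SD, n = 3), and the log2 fold change was 0.94 ± 0.19, or 1.92-fold (limma adjusted p = 0.000983).

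The Cdk1 value differed between slides and between probes. Over the WT female mean it was 0.57 on slide 2, 1.34 on slide 3 and 0.83 on slide 4 (log2 scale), a difference between slides within the Ftx-/- females (limma F test, adjusted p = 9.31e-05). The probe has a GC content of 18.3%, the lowest of all 14062 probes tested, where the median is 41.7%, and with the GC trend taken out the log2 fold change was 0.36 (limma adjusted p = 0.0181). Of the other Cdk1 probes, both under the signal minimum, A_55_P2016647 (GC content 45%) was well above background on all these arrays and gave 91.8 ± 5.63 (SD, n = 3) in WT females and 64.2 ± 8.07 (SD, n = 11) in Ftx-/- females, a log2 FC of -0.52 ± 0.16 in a fit without the minimum (limma adjusted p = 0.0311). The third, A_55_P2016652, again with a GC content of 18.3%, was well above background on 0 of 6 WT arrays and, among the mutants, in 1 of 3 males and on 12 of 22 female arrays, 8 of 8 on slide 3 and 4 of 8 on slide 4. The probes of Cdk1 thus gave opposite directions.

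Cyclins of G2 and mitosis did not pass the test. Ccnb1, the partner of Cdk1, has 3 probes, and at A_55_P2065671 the signal was 15880, 13690 and 13420 in WT females, 16380, 16280 and 18280 in WT males, 16220, 16710 and 17520 in Ftx-/Y males and 12830 to 21620 (median 16550) in Ftx-/- females. These groups overlapped in both sexes, with a female log2 FC of 0.18 (limma adjusted p = 0.255). The remaining Ccnb1 probes gave 0.18 (A_55_P1952256) and -0.23 (A_55_P2128668) in females (limma adjusted p = 0.302 and 0.115). Ccna2 and Ccnb2 gave 0.03 and -0.13, and the phosphatases Cdc25b and Cdc25c, which switch Cdk1 on, gave 0.14 and 0.25, none past the threshold.

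The 5 probes of the mitotic kinases and of survivin, which stand for 3 genes, all lay above 0 in females, beside 48.4% of all probes. Of these, 2 passed (40%, beside 35.1% of all probes). In males 4 of the 5 lay above 0, beside 49.7% of all probes, and none passed. Aurka, the centrosome kinase, rose by 0.27 ± 0.08 on the log2 scale in females (limma adjusted p = 0.0127), from 8885, 8230 and 8923 in the WT eyes to 9270 to 12090 (median 10580), without overlap, and gave 0.12 with the GC trend taken out (limma adjusted p = 0.204). Plk1, a kinase of mitotic entry, was at 20720, 17790 and 16850 in WT females, 17010, 15520 and 17640 in WT males, 17030, 17810 and 19110 in Ftx-/Y males and 16020 to 21670 (median 18390) in Ftx-/- females, overlapping throughout, with a female log2 FC of 0.01. Birc5 (survivin), of the chromosomal passenger complex, has 3 probes with log2 fold changes of 0.18, 0.17 and 0.21 in females, of which the first passed (limma adjusted p = 0.0448, against 0.145 and 0.0627) and gave 0.14 with the GC trend taken out (limma adjusted p = 0.139). Aurkb, the kinase of the same complex, had no probe above the minimum, and its probe (GC content 20%) gave signals of 7.82 to 13 in WT females, 8.11 to 8.68 in WT males, 8.01 to 20.8 in Ftx-/Y males and 7.92 to 187 in Ftx-/- females. The high Aurkb values were the 4 eyes of slide 3, at 152 to 187, where it was well above background on 8 of 8 arrays, against none of the other Ftx-/- and WT arrays.

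On the chromosome, Cenpa, the histone variant of the centromere, was at 3913, 4521 and 5125 in WT females and 4454 to 6771 (median 5874) in Ftx-/- females, beside 4759, 4997 and 4749 in WT males and 4905, 5100 and 5653 in Ftx-/Y males. Females overlapped, with 10 of 11 mutant eyes above the WT mean, and the log2 fold change was 0.36 ± 0.10 (limma adjusted p = 0.00873). Top2a, which untangles sister chromatids, was at 6795, 6211 and 5974 in WT females and 6451 to 7692 (median 6811) in Ftx-/- females, and at 6309, 6298 and 7090 in WT males and 7056, 7172 and 7382 in Ftx-/Y males. Its groups overlapped in both sexes, and the log2 fold change was 0.12 in females and 0.14 in males (limma adjusted p = 0.111 and 0.49). Mki67, the common marker of dividing cells, has 2 probes, and at A_55_P2073377 the signal was 18900, 18710 and 17360 in WT females, 19730, 19610 and 24430 in WT males, 20830, 20510 and 21550 in Ftx-/Y males and 14580 to 32430 (median 19820) in Ftx-/- females. The highest Mki67 signal at each probe, 32430 and 36070, was that of Ftx-/- eye 8, the groups overlapped in both sexes, and the probes gave 0.16 and 0.05 in females (limma adjusted p = 0.398 and 0.838). Cenpe, a kinetochore motor, gave 0.18 (limma adjusted p = 0.0697). Cenpf, a kinetochore protein under the signal minimum, was at 101 ± 5.62 (SD, n = 3) in WT females against 106 ± 22.8 (SD, n = 11) in mutant females.

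Of the spindle checkpoint, which holds anaphase until all chromosomes are attached, Bub1b was at 1508, 1931 and 2207 in WT females, 2162, 2133 and 2143 in WT males, 2252, 2041 and 2383 in Ftx-/Y males and 2033 to 2544 (median 2391) in Ftx-/- females. It rose in females by 0.36 ± 0.09 on the log2 scale (limma adjusted p = 0.00368), with 11 of 11 eyes above the WT mean and ranges that overlapped. Bub1 rose by 0.16 ± 0.05 (limma adjusted p = 0.0175), and Mad2l1 rose at 2 probes by 0.27 and 0.26 (limma adjusted p = 0.00551 and 0.0271), with 0.06 at a further probe. With the GC trend taken out, Bub1 gave 0.01 (limma adjusted p = 0.925) and the called Mad2l1 probes 0.11 and 0.26 (limma adjusted p = 0.285 and 0.0323). Ube2c, the ubiquitin-conjugating enzyme of the anaphase-promoting complex, which the checkpoint restrains, was at 12580, 14120 and 13220 in WT females and 9274 to 12540 (median 11220) in Ftx-/- females at A_51_P451151, without overlap. The log2 fold change there was -0.28 ± 0.08 (limma adjusted p = 0.00956), against -0.07 (limma adjusted p = 0.645) at its other probe and 0.01 at the first probe with the GC trend taken out. Cdc20, the activator of that complex, gave -0.14 (limma adjusted p = 0.124).

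Tpx2, which carries Aurora A to the spindle and activates it, had the lowest log2 fold change of the 58 probes, at A_51_P369200. It was at 6650, 6721 and 5826 in WT females, 6159, 6178 and 4357 in WT males, 4624, 4670 and 4594 in Ftx-/Y males and 3941 to 4902 (median 4478) in Ftx-/- females. Every Ftx-/- eye was below every WT female eye, while 1 WT male eye was below the Ftx-/Y eyes. The log2 fold change was -0.52 ± 0.08 in females (limma adjusted p = 0.00023) and -0.25 ± 0.11 in males (limma adjusted p = 0.374), and with the GC trend taken out the female value was -0.43 (limma adjusted p = 0.00239). Without that WT male eye the male value was -0.41 (limma adjusted p = 0.017). The other Tpx2 probe (A_55_P2003576), under the signal minimum but well above background on all arrays, had a mean signal of 275.3 ± 60.9 in the 3 WT females against 300.5 ± 53 in the 11 mutant females (SD), and gave 0.13 in females and 0.12 in males in a fit without the minimum (limma adjusted p = 0.58 and 0.87), so the fall was seen at a single probe of the gene. Of the other spindle genes, Kif23, a motor of cytokinesis, and Nusap1, which bundles microtubules, rose by 0.23 and 0.17 (limma adjusted p = 0.036 and 0.0146) and gave 0.11 and 0.13 with the GC trend taken out (limma adjusted p = 0.276 and 0.0619), and Kif11, the motor that parts the spindle poles, gave -0.13 (limma adjusted p = 0.277).

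In males, none of the 58 probes passed between Ftx-/Y and WT eyes by limma with adjustment, beside 0.0213% of all probes, and none by the methods' t-test after Benjamini-Hochberg adjustment. Before adjustment, 6 of 58 had a limma p under 0.05 (10.3%, against 11.8% of all probes), namely Ccnd1, Cdc25b, Bub1 and Nusap1 with values above 0 and E2f1 and Tpx2 below. Without WT male eye 3, Tpx2 and Cdc25b passed (limma adjusted p = 0.017 and 0.0449). The median log2 fold change was -0.08 over the G1/S probes, of which 9 of 28 lay above 0, and 0.11 over the G2/M probes, of which 21 of 30 did. Over all probes the median was -0.001 and 49.7% lay above 0. Ftx-/Y eye 1, on the slide of the WT eyes, gave a G2/M median of 0.03 with 19 of 30 above 0, and eyes 2 and 3, on slide 2, gave 0.13 with 24 of 30. The share over all probes was not taken for these eyes.

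The change in females was not shown to differ from that in males. None of the 58 probes passed in the test of that difference, beside 0% of all probes in limma, and 6 had an unadjusted p under 0.05 (10.3%, beside 13.8% of all probes). WT females and WT males differed at no cell cycle probe after adjustment in limma, beside 0.107% of all probes, with 3 at an unadjusted p under 0.05 (5.17%, beside 10.2% of all probes). Between Ftx-/- and Ftx-/Y eyes only Ccne1 passed, beside 2.01% of all probes, with a log2 FC of 0.35 ± 0.09 and no overlap between the groups (limma adjusted p = 0.0433). This call was kept in 2 of the 9 fits that left out 1 eye (WT female eye 4 or WT male eye 3), and was lost with the 75th percentile scaling, normexp, the series table, no signal minimum, the second arrays alone, only the 2 groups compared, and the slide or the replicate number as a block.

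Within the 11 Ftx-/- females, 18 of the 58 probes differed between slides 2, 3 and 4 (31%, limma F test), beside 34.5% of all probes, which was again near the share of the whole array. Cdk1, Cdc6, Ube2c and Mcm2 had the lowest adjusted p. Mcm2 lay at -0.14, 0.33 and 0.08 from the WT female mean on slides 2, 3 and 4 (log2 scale, limma F test adjusted p = 0.00077), and Gins2 at 0.54, -0.06 and 0.38 (limma F test adjusted p = 0.00551).

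As a level per eye, the mean log2 difference from the WT eyes of the same sex was taken over the genes of each list. The G2/M level was above 0 in 11 of 11 Ftx-/- eyes, between 0.05 and 0.20 (mean 0.12 ± 0.05, SD), against -0.01 to 0.01 in the WT females. In the Ftx-/Y eyes it was 0.02 to 0.12, overlapping the WT males at -0.05 to 0.05. The G1/S level was -0.01 to 0.13 in the Ftx-/- eyes (mean 0.04 ± 0.05, SD) and -0.09 to 0.01 in the Ftx-/Y eyes, against -0.04 to 0.03 in WT females and -0.02 to 0.02 in WT males. All mutant eyes of a sex share the same 3 WT eyes as their baseline. The WT eyes form that baseline themselves, so their levels centre on 0 and their range tends to understate the spread between WT eyes. By slide, the G2/M level of the Ftx-/- eyes was 0.12 on slides 2, 3 and 4, and the G1/S level was 0.03, 0.05 and 0.05. These levels rest on genes that rose and genes that fell, and have no test. Markers of retinal neurons, which have left the cycle, lay between -0.37 and 0.04 in the same Ftx-/- eyes, against -0.14 to 0.12 in WT females. In males they lay at 0.07 to 0.12 in the Ftx-/Y eyes and -0.08 to 0.04 in the WT eyes. Progenitor markers, a list that shares Ccnd1 with the G1/S genes, lay between -0.17 and 0.14 in the Ftx-/- eyes, against -0.09 to 0.07 in WT females. In males these lay at 0.04 to 0.13 in the Ftx-/Y eyes and -0.03 to 0.02 in the WT eyes. Lens markers lay between -0.95 and -0.27 in the Ftx-/- eyes, against -0.15 to 0.17 in WT females. In males the lens markers lay at -0.08 to 0.06 in the Ftx-/Y eyes and -0.09 to 0.14 in the WT eyes. The part of cell composition in the levels was not tested.

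**Figure D4:**
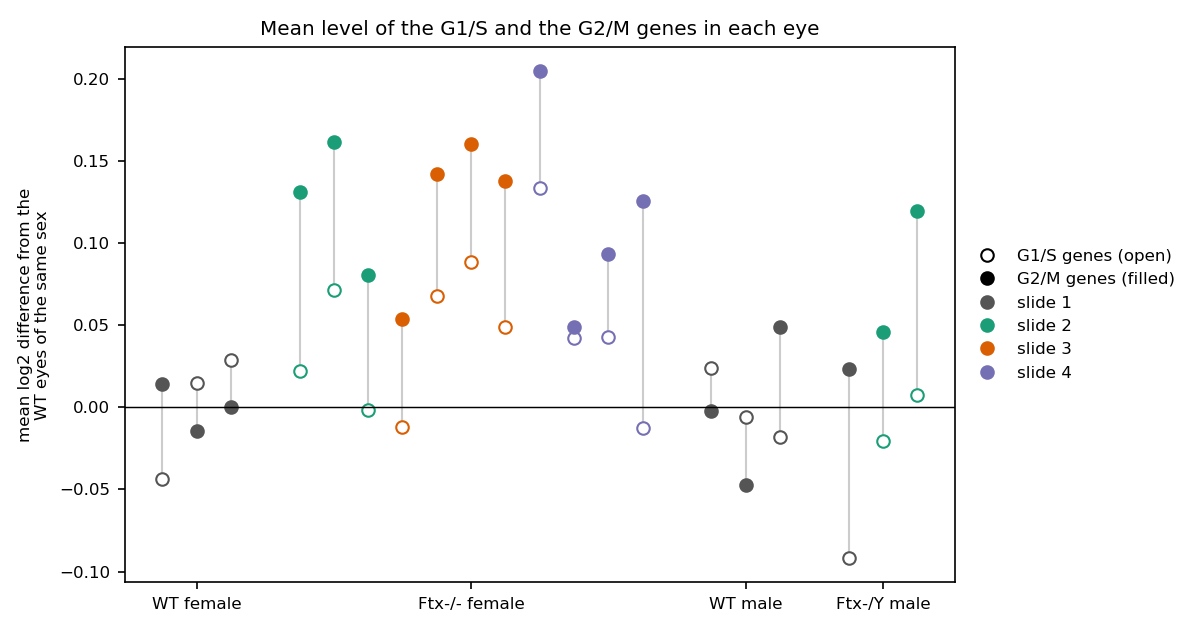
Mean log2 difference from the WT eyes of the same sex (y axis) over the G1/S genes (open points) and the G2/M genes (filled points) for each of the 20 eyes, coloured by slide. The G2/M points of the Ftx-/- eyes lie above those of the WT females, and those of the Ftx-/Y eyes overlap the WT males.

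Further cell cycle genes, written as lists of replication, cell cycle control and mitosis genes outside the 50, were counted in the same way in females. Of 32 other replication probes 9 were higher and 5 lower (43.8%), of 23 control probes 8 were higher and none lower (34.8%), and of 44 other mitosis probes 12 were higher and 2 lower (31.8%), beside 35.1% of all probes, with median log2 fold changes of 0.00, 0.09 and 0.03. None was called in males. Pole2, the second subunit of the leading-strand polymerase, rose from 770 ± 69.6 (SD, n = 3) to 1319 ± 126 (SD, n = 11), with a log2 FC of 0.77 ± 0.09 (limma adjusted p = 2.16e-05). Gmnn, the inhibitor of Cdt1, rose by 0.58 ± 0.12 (limma adjusted p = 0.00131). Tfdp1, the dimer partner of E2F, rose by 0.51 ± 0.08 at one probe (limma adjusted p = 0.000236) and gave 0.05 at the other.

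The lowest values in these lists were at Racgap1, Dnmt1 and Mybl2. Racgap1, of the cytokinesis machinery, fell at one probe by 0.36 on the log2 scale (limma adjusted p = 0.000796) and rose at its other probe by 0.23 (limma adjusted p = 0.00416). Dnmt1, which copies DNA methylation behind the fork, gave -0.35 ± 0.11 (limma adjusted p = 0.0181). Mybl2 (B-Myb) gave -0.33 ± 0.08 (limma adjusted p = 0.0039) at one probe and 0.03 at the other. Of the Cip/Kip inhibitors of cyclin-dependent kinases, Cdkn1b (p27) rose by 0.18 ± 0.06 (limma adjusted p = 0.0187) with 11 of 11 eyes above the WT mean, Cdkn1c (p57) gave -0.24 ± 0.15 (limma adjusted p = 0.226), and Cdkn1a had no probe above the minimum.

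The letters of the promoters shown at the start were also counted by call. Among the G2/M genes, CHR letters stood in 5 of 9 promoters of genes called higher and in 6 of 9 of genes not called. They also stood in that of Ube2c, which was called lower, as was Tpx2, for which no promoter was found. Among the G1/S genes, E2F letters stood in 2 of 4 promoters of genes called higher, 1 of 4 of genes called lower and 6 of 11 of genes not called. E2f2 and Mcm7 are counted with 2 promoters each, and Mcm4, called higher, had none.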

How the data were processed

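RNA of 20 eyes was measured on 31 1-colour Agilent arrays of 62976 spots, 3671 of them controls. The authors deposited, for each spot, the background-subtracted intensity given by Agilent Feature Extraction 11.0.1.1, per the file headers, with probe positions in mm9. The series table deposited beside it held the same intensities (ratio 0.995 to 1.005) and entered as an alternative after log2 conversion.

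Intensities were normalized with the qspline method of affy that the study's methods name, rewritten for R 4.3.3 with 100 samples, 5 iterations and a smallest offset of 5. After removal of 5751 spots that the scanner software marked as outliers, the mean was taken over the spots of a probe and, on the log2 scale, over both arrays of an eye. Probes with a mean WT signal above 500 were kept, 14062 in all, 21 of them with a missing eye. Groups were compared with limma 3.58.1 (eBayes with trend), all 20 eyes in 1 model, with Benjamini-Hochberg adjustment over these probes, and called at an adjusted p under 0.05. Tables were read with the R package data.table (version 1.17.8). The fit was tested on simulated data, drawn for each probe on its own and with no slide effect, so that test does not bear on the slides. Precision is limited by the number of eyes.

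The genes and lists were written from general knowledge and were chosen with earlier results of these data known. Values by eye are given for Mcm2, Mcm5, Pcna, Ccnd1, Ccnd2, Cdk4, Pola1, E2f1, Rrm2, Cdk1, Ccnb1, Top2a, Mki67, Plk1 and Aurkb, and for the 5 largest rises and 5 largest falls among called probes of each comparison. From the other cell cycle genes, the 3 largest rises, the 3 largest falls and the CDK inhibitors Cdkn1a, Cdkn1b and Cdkn1c are named. Every other member is accounted for by its fold change or its signal. The 2 arrays of an eye correlated at 0.994 to 0.999, and different eyes of a group at up to 0.998.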

Additional observations from a re-analysis of the deposited data

Results flagged for a closer look

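Aurkb, a G2/M gene under the signal minimum, was well above background on 8 of the Ftx-/- arrays, all on slide 3, and on none of the 6 WT arrays. The Cdk1 probe A_55_P2016652, likewise under the minimum, was well above background on 12 Ftx-/- arrays, 8 on slide 3 and 4 on slide 4, on 1 of 3 Ftx-/Y arrays and on none of the 6 WT arrays. Both were singled out because they lie outside the comparisons and were above the level of the WT eyes, and the part of the slide was not tested apart from genotype. Their probes have GC contents of 20% and 18.3%, against a median of 41.7% over the probes tested, and the part of probe composition was not tested.

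For 2 probes every mutant eye of one sex lay on one side of its WT mean and every mutant eye of the other sex on the opposite side. For Ccne1 (A_51_P408946) the Ftx-/- eyes lay 0.03 to 0.48 above and the Ftx-/Y eyes -0.18 to -0.06 from the WT mean, a difference of 0.39 on the log2 scale (limma adjusted p = 0.242). The other Ccne1 probe (A_66_P125327), under the minimum, gave 0.61 in females and 0.19 in males, so the opposite sides were seen at a single probe of the gene. For Ccnb1 (A_55_P2128668) the Ftx-/- eyes lay at -0.58 to -0.04 and the Ftx-/Y eyes at 0.04 to 0.16, a difference of -0.33 (limma adjusted p = 0.428). The other Ccnb1 probes gave 0.18 in females and 0.30 in males (A_55_P1952256) and 0.18 and -0.01 (A_55_P2065671), so this pattern too was seen at a single probe.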

How the results depend on the processing

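Counts of cell cycle probes called between Ftx-/- and WT females, 6 higher and 3 lower for G1/S and 10 higher and 2 lower for G2/M, depended on several choices, and where a count changed the cause was not tested. With the slide as a fixed block they were 0, 1 (Pola1), 0 and 0, with a G1/S median of -0.0384, 1 probe called in males (Pola1) and a male G2/M median of 0.0251. With the slide as a random block 3 G1/S and 3 G2/M probes were higher. The replicate numbers do not pair the eyes (correlations of same-numbered eyes -0.59 to 0.29), and with the replicate block 5 G1/S probes were lower, 5 G2/M higher and 1 lower, with medians of -0.0223 and 0.0905. The series table, not normalized between arrays, gave 0 lower in either list, medians of 0.28 and 0.44 in females (0.25 over all probes) and -0.19 and 0.0219 in males. Without the signal minimum the male G1/S median was -0.0252.

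By the methods' t-test with its fold limits, 1 G1/S probe was lower, 4 G2/M higher and 1 lower, 1 was called between WT sexes and 4 between mutant sexes, and after Benjamini-Hochberg adjustment 1 G2/M probe was lower and 3 were called between mutant sexes. By limma with unadjusted p and the same limits the numbers were 1 lower, 5 higher and 1 lower, with 1 in males, 4 for the difference of the sexes, 2 between WT sexes and 4 between mutant sexes. The call of Ccne1 between mutant sexes was lost (0 probes) with the 75th percentile, normexp, the series table, no minimum, the second arrays, only the 2 groups compared, each slide block, the replicate block and slide 2 alone.

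Leaving out each WT and Ftx-/Y eye in turn (no Ftx-/- eye was left out) gave 4 to 7 and 2 to 4 G1/S probes and 5 to 10 and 1 to 3 G2/M probes higher and lower in females (5 and 1 without WT female eye 2), 0 to 2 in males (Tpx2 and Cdc25b without WT male eye 3) and 0 to 1 between mutant sexes.

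Chosen after seeing the data, with the GC trend taken out 2 G1/S probes were higher, of which only Mcm4 was among the 6. Ftx-/- eyes of slide 2 alone gave 5 G1/S and 1 G2/M probes lower, those of slide 3 alone 6 and 4 lower, and those of slide 4 alone 5 G2/M higher and a G1/S median of 0.0902. Among probes called with or without the setting, signs turned for Ube2c (A_51_P451151, 0.0082 in the series table and 0.0102 with the GC trend taken out), E2f1 (0.0101 in the series table), Cdt1 (-0.0389, slide fixed) and Pola1 (-1.03, slide fixed). The settings not named here kept the counts within 1.5 times. Aurkb, Ccne2 and a Cdk1 probe had signals too close to background for a fold change.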
